A study of Mus musculus with 2 samples.

Results

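The genes described here are 10 vascular growth factors and receptors, taken by name from the 31053 features of the deposited count tables: the ligands *Vegfa*, *Pgf*, *Angpt1* and *Angpt2*, the receptors *Kdr*, *Flt1*, *Tek* and *Tie1*, and the co-receptors *Nrp1* and *Nrp2*. The rule uses their names and no threshold on a value, but they were chosen with earlier results of these data known. All 10 were present in both tables. VEGF ligands bind the receptor tyrosine kinases encoded by *Kdr* (VEGFR2) and *Flt1* (VEGFR1) on endothelial cells, with neuropilins as co-receptors, and so drive the growth of new vessels. Angiopoietins act on the receptor encoded by *Tek* (TIE2), with *Tie1* as its partner, and govern how vessels mature and hold together. In the eye, the retinal pigmented epithelium (RPE) is a known source of VEGF for the choroidal vessels that lie against it.

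Total cells of mouse eye cups were measured at e13.5 in 2 libraries, 1 per genotype, each made from 3 pooled samples. The control library was Myrf fl/fl, in which both *Myrf* alleles are floxed. The mutant library was Rx>cre Myrf fl/fl, which carries the same floxed alleles and a cre transgene active in the early eye field, from which retina and RPE both arise. Cornea, lens and optic nerve had been removed before dissociation with papain. With 1 library per genotype there were no replicates, so no difference between libraries below has a test, and every interval (95%) covers counting error only. *Myrf*, the targeted gene, had 155 UMIs (unique molecular identifiers) in control RPE-like cells and 30 in mutant ones, at 74.1 and 20.1 CPM (UMIs per 1000000 UMIs of the class). The log2 ratio of mutant over control was -1.85 (-2.50 to -1.31). Which exons are floxed is not given in the sources used here, so whether the counted 3′ end lies in the deleted stretch is not known.

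The control library held 6039 barcodes and 63483835 UMIs and the mutant library 6754 barcodes and 75228861 UMIs, and 5468 and 6300 cells were kept. Cells were clustered without the 10 genes, and clusters were named X-like from marker lists that hold none of them. RPE-like cells numbered 255 (control) and 153 (mutant), pericyte-like cells 30 and 20, periocular mesenchyme-like cells 1494 and 1953, and retina-like cells 2329 and 2629. RPE markers summed to 14111 CPM in control and 10018 CPM in mutant RPE-like cells, beside 33.5 and 25.8 CPM in mesenchyme-like cells. Endothelial markers summed to 6840 and 6657 CPM in endothelium-like cells, beside 126 and 103 CPM in mesenchyme-like cells. Pericyte markers summed to 933 and 1465 CPM in pericyte-like cells, beside 151 and 118 CPM. Clusters were named from these lists, so the sums describe the classes and do not test their names. Detection alone does not tell classes apart, as all 11 RPE and 15 endothelial markers were detected in mesenchyme-like cells too. Unnamed clusters took 13.3% of control and 9.65% of mutant cells. The libraries shared 72 barcodes, and 57 of them fell in both libraries into 1 unnamed cluster of 60 control and 63 mutant cells, which is in none of the classes. The ratio of a shared barcode's UMIs in this cluster, mutant over control, had a median of 0.942. Without shared barcodes, *Vegfa* in RPE-like cells had a log2 ratio of -0.57 in place of -0.56, and no member passed 2-fold in a class.

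The 4 receptor genes *Kdr*, *Flt1*, *Tek* and *Tie1* reached their highest level in endothelium-like cells, so the bases before the start of 3 of them are shown first. ETS factors, which bind the core GGAA, are known regulators of endothelial genes. The runs below are the 250 bases before the RefSeq start (build GRCm38.p6, written along the gene's strand), with GGAA, or TTCC for a match on the other strand, in capitals. They lie at chr5:75978456-75978705 (minus strand) for *Kdr*, chr5:147726012-147726261 (minus strand) for *Flt1* and chr4:94739039-94739288 (plus strand) for *Tek*.
Kdr: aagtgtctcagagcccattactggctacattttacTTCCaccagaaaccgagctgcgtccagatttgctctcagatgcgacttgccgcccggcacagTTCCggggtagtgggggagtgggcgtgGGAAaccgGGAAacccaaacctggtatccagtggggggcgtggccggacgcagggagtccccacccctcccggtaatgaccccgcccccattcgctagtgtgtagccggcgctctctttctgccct
Flt1: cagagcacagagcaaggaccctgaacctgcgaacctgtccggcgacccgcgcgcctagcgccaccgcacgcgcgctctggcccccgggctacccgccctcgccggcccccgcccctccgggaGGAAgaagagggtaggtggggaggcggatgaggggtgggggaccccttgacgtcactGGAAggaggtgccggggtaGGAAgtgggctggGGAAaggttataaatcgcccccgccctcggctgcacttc
Tek: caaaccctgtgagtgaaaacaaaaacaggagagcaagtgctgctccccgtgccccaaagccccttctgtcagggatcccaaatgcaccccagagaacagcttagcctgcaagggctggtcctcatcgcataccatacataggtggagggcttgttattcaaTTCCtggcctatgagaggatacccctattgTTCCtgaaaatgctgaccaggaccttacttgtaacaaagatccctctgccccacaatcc
*Kdr* and *Flt1* each held 4 matches and *Tek* 2. Among the 32851 RefSeq windows of this length, 93.5% held at least 1 match and 33.4% held 4 or more, so these counts do not set the 3 genes apart. Of the others, *Tie1* held 7 matches, *Vegfa* 6, *Nrp1* 4, *Nrp2* 1 and *Pgf* 0, and 3.82% of all windows held 7 or more. The hypoxia-response core ACGTG and the E-box CACGTG, which contains it, each searched on both strands, were in none of the 8 windows, beside 16.6% and 6.02% of all. The GC content was 61.6% for *Kdr*, 70.4% for *Flt1* and 51.2% for *Tek*, beside a median of 52.4% over all windows. Windows were found for 8 of the 10 genes, all but *Angpt1* and *Angpt2*.

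Among the ligands, *Vegfa* (chromosome 17, 46016993 to 46032369, minus strand; GRCm38), the main growth signal for blood vessels, had its highest level in RPE-like cells in both libraries. The control RPE-like cells held 197 *Vegfa* UMIs (94.2 CPM, 81.5 to 108) and the mutant ones 95 (63.5 CPM, 51.4 to 77.7). Periocular mesenchyme-like cells came next, with 31.2 and 27.8 CPM. The RPE level was 3.02-fold (2.57 to 3.55) that of mesenchyme in the control and 2.28-fold (1.83 to 2.83) in the mutant library. Retina-like cells stood at 17.8 and 18.4 CPM, where the RPE level was 5.28-fold and 3.44-fold higher. Pericyte-like cells had 12 and 4 UMIs (30.8 CPM in the control), and their intervals overlapped those of mesenchyme. Endothelium-like cells, which bear the receptors, had only 11 and 7 *Vegfa* UMIs (6.09 and 3.89 CPM). Although the level was highest in RPE, few cells are RPE, so of the *Vegfa* UMIs of all named cells 14.1% lay in control and 6.8% in mutant RPE-like cells, and 47.2% and 52.0% in mesenchyme.

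Shares of cells gave the same order of libraries for *Vegfa* in RPE. With each cell thinned to 3000 UMIs, 31 of 132 control RPE-like cells (23.5%, 16.5 to 31.6) and 10 of 80 mutant ones (12.5%, 6.16 to 21.8) held a *Vegfa* UMI. The 123 control and 73 mutant cells with fewer UMIs were left out. Without thinning the shares were 38.0% and 28.8%, at medians of 3919 and 3853 UMIs per cell. The background, read from red blood cell-like cells, was 0.56% and 0.48% after thinning, and 2.40% and 2.87% before it at medians of 22476.5 and 22723.5 UMIs. Erythroid genes took 852371 and 818784 CPM of these cells, so thinning left few other UMIs and lowered this background.

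*Pgf* (chromosome 12, 85166635 to 85177790, minus strand), placental growth factor, a ligand of *Flt1*, had its highest level in mesenchyme in both libraries. Periocular mesenchyme-like cells held 1600 of the 1721 *Pgf* UMIs of named control cells (93.0%) and 92.3% in the mutant library, at 75.6 CPM (72.0 to 79.4) and 64.5 CPM (61.5 to 67.6). Next came pericyte-like cells in the control, with 48.7 CPM (29.3 to 76.1) on 19 UMIs, and muscle-like cells in the mutant library, with 45.2 CPM (30.7 to 64.1) on 31 UMIs, and both intervals overlapped that of mesenchyme. In the other library these classes had 3 UMIs (11.3 CPM, mutant pericyte-like) and 11 UMIs (18.2 CPM, control muscle-like). Retina-like cells had 2.05 and 2.50 CPM and RPE-like cells 12.4 and 14.0 CPM. Mesenchyme was not uniform. A single cluster led by *Aldh1a2* and *Crym* (and by *Pgf* and *Nrp2* themselves, which were not used to form it) held 202 of the 1494 control mesenchyme-like cells and 772 of their 1600 *Pgf* UMIs, at 315 CPM, and it stood at 272 CPM in the mutant library. The next of the larger clusters, led by *Cldn11*, had 80.8 and 79.2 CPM, and the one led by *Nbl1* only 6.18 and 7.95 CPM.

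*Angpt1* (chromosome 15, 42424723 to 42676977, minus strand), the agonist of TIE2, was found in RPE-like and mesenchyme-like cells. RPE-like cells held 51 control UMIs (24.4 CPM, 18.2 to 32.1) and 30 mutant UMIs (20.1 CPM), and mesenchyme-like cells 462 (21.8 CPM) and 614 (23.4 CPM). Which of the pair was higher differed between libraries, and their intervals overlapped in both. No *Angpt1* UMI was found in endothelium-like cells, where a floor of 3 UMIs is 1.66 CPM (control) and 1.67 CPM (mutant). The mesenchyme level was 13.1-fold this floor in the control and 14.0-fold in the mutant library. The lower interval limits of these folds were 10.6 and 11.4. Within mesenchyme, *Angpt1* stood at 46.9 and 42.6 CPM in the *Aldh1a2* cluster and at 35.4 and 38.0 CPM in the *Cldn11* cluster, with overlapping intervals in both libraries, and was low in the *Nbl1* cluster (6.18 and 7.95 CPM).

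*Angpt2* (chromosome 8, 18690263 to 18741562, minus strand), a context-dependent antagonist of TIE2 that is best known from endothelial tip cells, was sparse: 84 UMIs in all kept control cells and 87 in the mutant. Endothelium-like cells held 1 and 3 of them. The highest levels, on 8 and 9 UMIs, were in melanocyte-like cells (9.45 and 14.0 CPM). Amacrine or horizontal-like cells followed in the control with 6.71 CPM on 4 UMIs and had 6.99 CPM on 5 in the mutant library, and RPE-like cells had 10 and 3 UMIs (4.78 and 2.01 CPM). The intervals of neighbours in this order overlapped, and the farthest apart of these, melanocyte-like and RPE-like cells, did so in the control (4.08 to 18.6 and 2.29 to 8.79 CPM) but not in the mutant library (6.39 to 26.5 and 0.41 to 5.86 CPM).

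**Figure D1:**
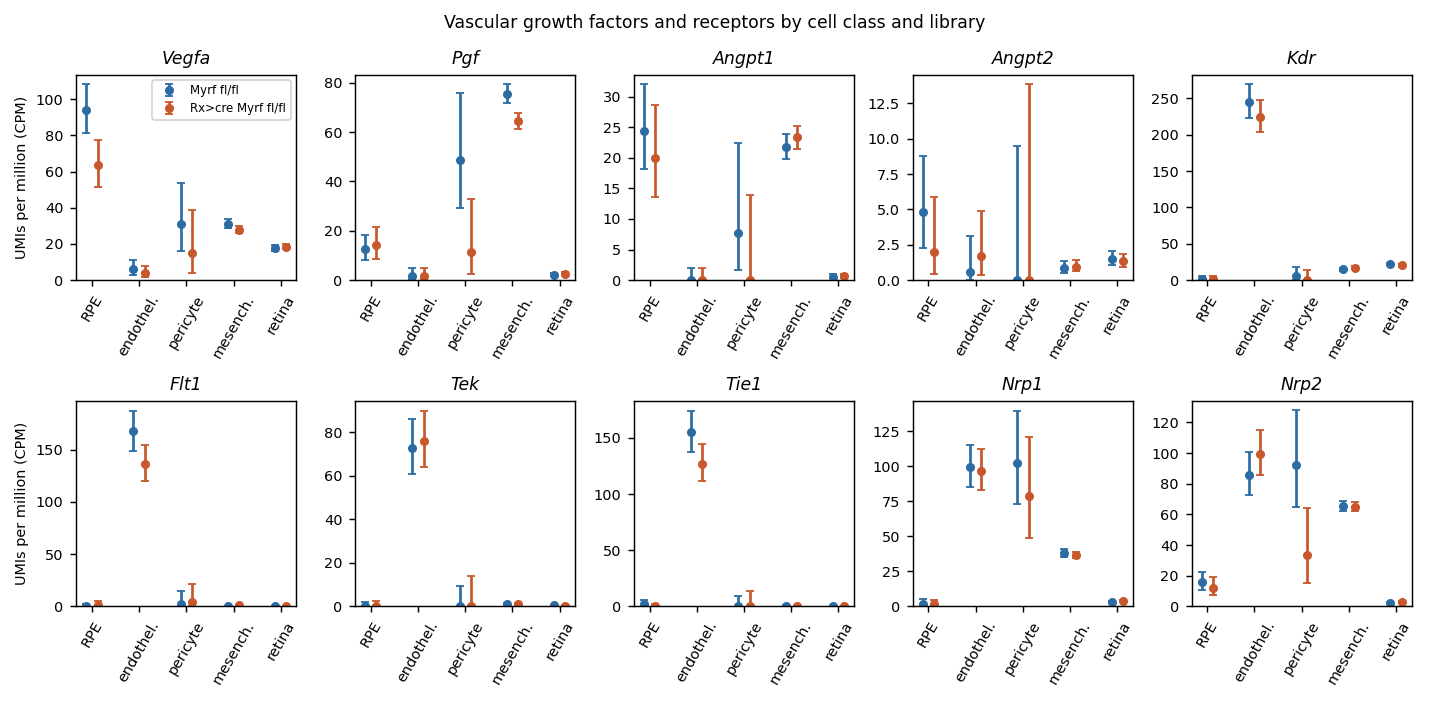
Level of each gene (CPM of the class sum, linear axis from 0) in the 5 classes, in the control (blue) and mutant (orange) library; points are values of 1 library and bars exact Poisson intervals (95%). *Vegfa* peaked in RPE-like cells (94.2 and 63.5 CPM), *Pgf* in mesenchyme, and *Kdr*, *Flt1*, *Tek* and *Tie1* in endothelium-like cells.

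Among the receptors, *Kdr* (chromosome 5, 75932827 to 75978458, minus strand), the principal signalling receptor for VEGF, was highest in endothelium-like cells. They held 443 UMIs in the control (245 CPM, 223 to 269) and 405 in the mutant library (225 CPM, 204 to 248). *Kdr* was also present outside vessels. Retinal progenitor-like cells held more of its UMIs than endothelium did, 536 and 506, because they are many, and stood at 27.8 CPM (25.5 to 30.2) and 26.5 CPM (24.2 to 28.9). Along the retinal classes the level was lower in neurogenic precursor-like cells, at 12.5 and 10.8 CPM, and in ganglion cell-like cells, at 2.21 and 4.43 CPM, while amacrine or horizontal-like cells held 0 UMIs and 1. After thinning, 6.94% of control and 6.01% of mutant retina-like cells held a *Kdr* UMI. In red blood cell-like cells 0 of 178 control cells did (an interval up to 2.05%) and 1.21% of the mutant ones. Unthinned, the *Kdr* shares were 16.7% and 15.5% in retina-like and 2.40% and 3.07% in red blood cell-like cells, at medians of 11378 and 10441 against 22476.5 and 22723.5 UMIs. Erythroid genes took 852371 and 818784 CPM of red blood cell-like cells, so thinning left few UMIs of other genes there and lowered this background. Mesenchyme-like cells had 14.6 and 17.0 CPM, and within them the *Nbl1* cluster had 27.5 and 24.3 CPM. RPE-like cells held 4 and 3 UMIs.

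*Flt1* (chromosome 5, 147561604 to 147726011, minus strand), which binds VEGF tightly and also yields a soluble decoy form, was almost confined to one class. Endothelium-like cells held 302 of 329 UMIs of named control cells (91.8%) and 87.2% in the mutant library, at 167 CPM (149 to 187) and 137 CPM (120 to 155). RPE-like cells held 1 and 2 UMIs, mesenchyme-like cells 7 and 23, and retina-like cells 11 and 8. The soluble and membrane-bound forms cannot be told apart in these 3′ counts per gene.

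*Tek* (chromosome 4, 94739289 to 94874976, plus strand) and *Tie1* (chromosome 4, 118471191 to 118490061, minus strand) followed the same pattern. *Tek* had 131 and 137 UMIs in endothelium-like cells (72.6 CPM, 60.7 to 86.1, and 76.1 CPM, 63.9 to 89.9), which was 79.9% and 79.7% of its UMIs in named cells. *Tek* was at 0 in RPE-like cells of both libraries, where the intervals reach up to 1.76 CPM (control) and 2.47 CPM (mutant). For the fold of endothelium-like over RPE-like cells, the lower interval limits were 40.6 (control) and 30.4 (mutant). A few *Tek* UMIs lay in mesenchyme, 20 and 28, of which the *Osr2* cluster held 8 and 11. *Tie1* had 280 UMIs in control endothelium-like cells (155 CPM, 138 to 174) and 229 in mutant ones (127 CPM, 111 to 145), and 5 and 0 in RPE-like cells, where 1 cell held 80.0% of the 5. Pericyte-like cells held no UMI of *Tek* or *Tie1*, but with 30 and 20 cells the intervals reach up to 9.46 and 13.9 CPM.

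Part of the endothelium-like cells held more than 1 of these receptors. After thinning to 3000 UMIs, at least 1 of *Kdr*, *Flt1*, *Tek* and *Tie1* was seen in 74 of 97 control (76.3%) and 77 of 102 mutant (75.5%) endothelium-like cells, and at least 2 of them in 42.3% and 33.3%. The intervals of these shares overlapped between libraries. Singly, *Kdr*, *Flt1*, *Tek* and *Tie1* were seen in 42.3%, 39.2%, 16.5% and 34.0% of control and 46.1%, 36.3%, 17.6% and 22.5% of mutant cells. Whether the receptors met in a cell more often than these single shares would give was not tested. In red blood cell-like cells at least 1 receptor was seen in 0.562% and 1.21%, and at least 2 in none of 178 and 413 cells. Erythroid UMIs fill most of these thinned cells, which lowers such shares. In retina-like cells 7.29% and 6.10% had at least 1, and none of 1975 and 2179 cells had 2. Mesenchyme-like cells had at least 1 in 4.73% and 5.30%, and at least 2 in 1 of 1481 and 4 of 1944 cells.

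**Figure D2:**
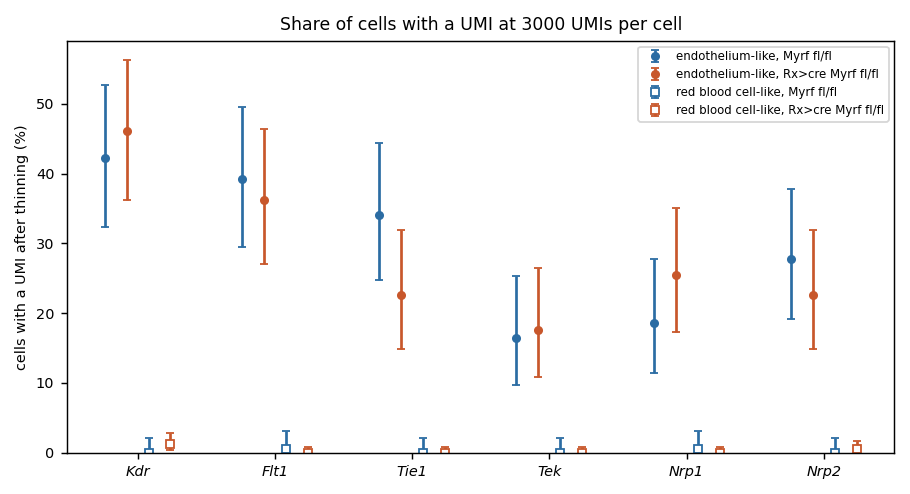
Share of cells with a UMI (%) of each receptor and co-receptor after every cell was thinned to 3000 UMIs, in endothelium-like cells (filled) and red blood cell-like cells (open squares) of the control (blue) and mutant (orange) library; bars are Clopper-Pearson intervals (95%). *Kdr* was seen in 42.3% and 46.1% of endothelium-like cells, and the red blood cell-like shares lie near 0. Erythroid UMIs fill most of the thinned red blood cell-like cells, which lowers their shares.

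The co-receptors were spread over more classes. *Nrp1* (chromosome 8, 128358604 to 128503363, plus strand), which binds VEGF and the axon guidance cue SEMA3A, stood at 99.2 and 96.6 CPM in endothelium-like cells, 103 and 78.9 CPM in pericyte-like cells and 109 and 101 CPM in Schwann or neural crest-like cells. The intervals of these 3 classes overlapped in both libraries. Macrophage-like cells (42.4 and 52.3 CPM) and mesenchyme-like cells (37.9 and 36.5 CPM) were lower, although in the mutant library the intervals of macrophage-like (42.2 to 64.1) and pericyte-like cells (48.8 to 121) overlapped. Retina-like cells had 3.14 and 3.57 CPM, mostly from ganglion cell-like cells, where the *Igfbpl1* cluster had 12.4 and 14.8 CPM.

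*Nrp2* (chromosome 1, 62703285 to 62818695, plus strand), the co-receptor more tied to lymphatic and venous vessels, had 155 and 179 UMIs in endothelium-like cells (85.9 CPM, 72.9 to 100, and 99.4 CPM, 85.4 to 115). Pericyte-like cells were the highest class in the control, with 92.3 CPM (64.6 to 128) on 36 UMIs, an interval that overlapped that of endothelium, and had 33.8 CPM (15.5 to 64.2) on 9 UMIs in the mutant library. Schwann or neural crest-like cells had 43.0 and 21.2 CPM on 13 and 12 UMIs, and melanocyte-like cells 34.2 and 21.7 CPM. Mesenchyme-like cells had 65.4 and 65.0 CPM, and being many held 79.8% and 83.2% of its UMIs in named cells. As for *Pgf*, the *Aldh1a2* cluster stood out, with 226 and 251 CPM and 40.0% and 40.7% of the mesenchymal UMIs. RPE-like cells had 15.8 and 12.0 CPM.

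**Figure D3:**
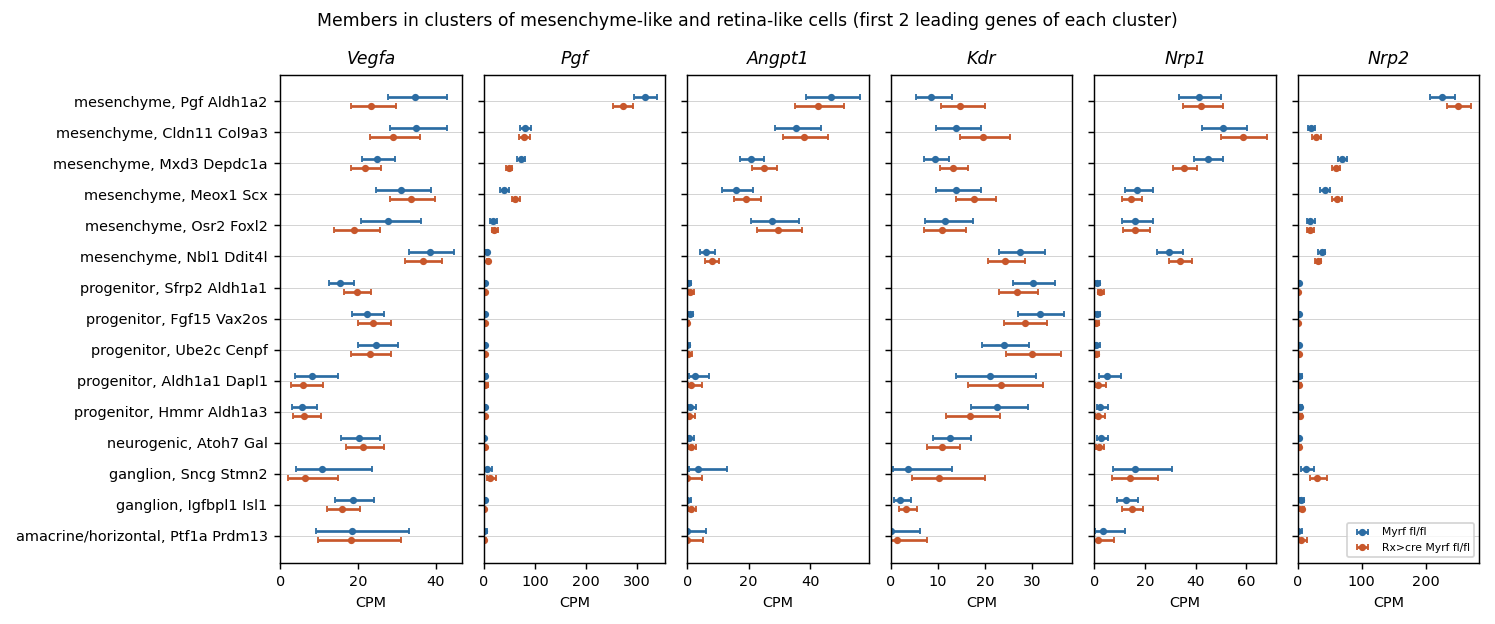
Level (CPM, 1 linear axis per gene) of 6 members in the clusters of mesenchyme-like and retina-like cells with at least 50 cells in each library, each named by its class and its first leading genes; bars are exact Poisson intervals (95%), blue control, orange mutant. *Pgf* (315 and 272 CPM) and *Nrp2* (226 and 251 CPM) peak in the same mesenchyme cluster, and *Kdr* is higher in progenitor than in ganglion cell clusters.

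The libraries were then compared class by class, to see whether loss of *Myrf* in the eye field went with another level of a vascular gene in the RPE or in its neighbours. Of the 22 pairs of member and class with at least 50 UMIs over both libraries, none passed 2-fold in either direction. In RPE-like cells 3 members could be compared and 0 passed 2-fold, beside 2.62% of 6914 genes there (1.66% lower and 0.955% higher in the mutant library). In endothelium-like cells 0 of 6 passed, beside 0.781% of 6144 genes (0.586% lower, 0.195% higher). In pericyte-like cells 0 of 1 passed, beside 2.03% of 1826 genes (1.37% lower, 0.657% higher). In mesenchyme-like cells 0 of 6 passed, beside 0.652% of 12432 genes (0.434% lower, 0.217% higher), and in retina-like cells 0 of 6, beside 0.484% of 12387 genes (0.307% lower, 0.178% higher). With shares this small over all genes, counts of 0 do not set the members apart. The class of highest level was the same in both libraries for 8 of the 10 genes, all but *Nrp2* and *Angpt1*.

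The largest of the 22 differences was that of *Vegfa* in RPE-like cells, with a log2 ratio of mutant over control of -0.56 (-0.94 to -0.21), beside a median of -0.03 over all genes of that class. No cell held over 6.32% of the *Vegfa* UMIs. The class was made of cells with different mitochondrial shares (medians of 5.21% in control and 4.82% in mutant cells). At or under 5% mitochondrial UMIs *Vegfa* stood at 65.6 and 51.4 CPM, with a ratio of -0.35 (-1.03 to 0.33), and above 5% at 105 and 76.8 CPM, with -0.44 (-0.92 to -0.00285). Cells were also assigned to female or male embryos by *Xist* and Y-linked UMIs. There were 1964 female and 1138 male cells in the control and 1559 and 1764 in the mutant library, and many cells had no sex assigned. Of the 255 control and 153 mutant RPE-like cells, 43 and 15 were female and 65 and 45 male. The rest of the class lies in neither set. In female cells *Vegfa* had 35 and 17 UMIs (72.3 and 67.0 CPM) and a ratio of -0.07 (-1.04 to 0.77), and in male cells 100 and 59 UMIs (103 and 72.5 CPM) and -0.49 (-0.99 to -0.03). The RPE markers that name the class also summed to less in the mutant library, at 14111 CPM in control and 10018 CPM in mutant RPE-like cells (11 of 11 detected in both). The melanocyte markers summed to 2904 and 2215 CPM (7 and 6 of 8 detected). Their list shares *Dct* and *Tyrp1* with the RPE list, and its *Mlana* was a leading gene of the RPE-like cluster. The melanocyte sum is thus not separate from pigment genes of the RPE. The 9 red blood cell markers summed to 946 and 1384 CPM, with 8 of them detected in both. The part of these markers in the *Vegfa* ratio was not tested. *Angpt1* and *Nrp2* in RPE-like cells had ratios of -0.26 (-0.98 to 0.40) and -0.36 (-1.31 to 0.48), whose intervals reach both sides of 0.

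In endothelium-like cells the class took 2.69% of control cells (147 cells, 2.28 to 3.15) and 2.37% of mutant cells (149 cells, 2.00 to 2.77). *Flt1* had a log2 ratio of -0.29 (-0.54 to -0.04) and *Tie1* of -0.29 (-0.54 to -0.03). *Kdr* stood at -0.13 (-0.32 to 0.07), *Tek* at 0.07 (-0.29 to 0.42), *Nrp1* at -0.04 (-0.35 to 0.27) and *Nrp2* at 0.21 (-0.11 to 0.53). The median over all genes of the class was -0.05. By sex of the embryo, *Flt1* stood at -0.61 in female and 0.03 in male cells, and *Tie1* at -0.06 and -0.27. These rest on 32 control and 19 mutant female cells and 28 and 40 male cells. That is too few to tell whether the direction differed by sex. Red blood cell markers summed to 369 CPM in control and 1121 CPM in mutant endothelium-like cells (8 of 9 detected in both), mesenchyme markers to 191 and 64.4 CPM (12 of 12 in both), and their part in these ratios was not tested.

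In mesenchyme-like cells log2 ratios were small: -0.23 (-0.33 to -0.13) for *Pgf*, -0.16 (-0.32 to -0.01) for *Vegfa*, 0.22 (0.01 to 0.43) for *Kdr*, -0.05 for *Nrp1*, -0.01 for *Nrp2* and 0.10 for *Angpt1*. The lower *Pgf* was not shared by all mesenchyme clusters. Of the 7 that could be compared 4 were lower and 3 higher in the mutant library, from -0.61 in a small cluster led by *Fmo1* (37 and 23 UMIs) to 0.62 in the cluster led by *Meox1*, where UMIs went from 99 to 252 and cells from 193 to 347. By sex, *Pgf* in mesenchyme-like cells stood at -0.08 in female and -0.54 in male cells. *Kdr* was higher in 4 of 5 clusters and *Vegfa* lower in 5 of 6, but clusters of 1 library are not replicates. Every *Kdr* interval reached both sides of 0, and the *Nbl1* cluster, with the most *Kdr* UMIs, was lower (-0.18). Among the *Vegfa* intervals only that of the *Aldh1a2* cluster lay under 0 (-0.56, -1.05 to -0.08). In retina-like cells *Vegfa* had 0.05 (-0.13 to 0.23) and *Kdr* -0.11 (-0.28 to 0.06), although the cre line acts in these cells too.

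Pericyte-like cells were too few for most members. *Nrp1* had 40 and 21 UMIs and a ratio of -0.35 (-1.21 to 0.42). *Nrp2* had 36 and 9 UMIs (92.3 and 33.8 CPM) and *Pgf* 19 and 3 (48.7 and 11.3 CPM), both under the minimum of 50, with ratios of -1.34 (-2.69 to -0.37) and -1.77 (-4.51 to -0.35). A single cell held 47.4% of the control *Pgf* UMIs and another 44.4% of the mutant *Nrp2* UMIs. Mesenchyme markers summed to 5055 CPM in the control and 3674 CPM in the mutant pericyte-like cells, beside 3855 and 3876 CPM in mesenchyme-like cells. The pericyte-like class thus kept mesenchyme markers at about the level of mesenchyme. Pericyte markers summed to 933 and 1465 CPM (11 of 12 detected), beside 151 and 118 CPM in mesenchyme-like cells. Of 9 genes that respond to tissue dissociation, 4 could be compared there, all lower in the mutant library and 3 of them past 2-fold, with a median of -1.45, beside 1.37% of all 1826 genes lower past 2-fold and a median of -0.03 over them. The part of these genes and markers in the ratios was not tested.

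**Figure D4:**
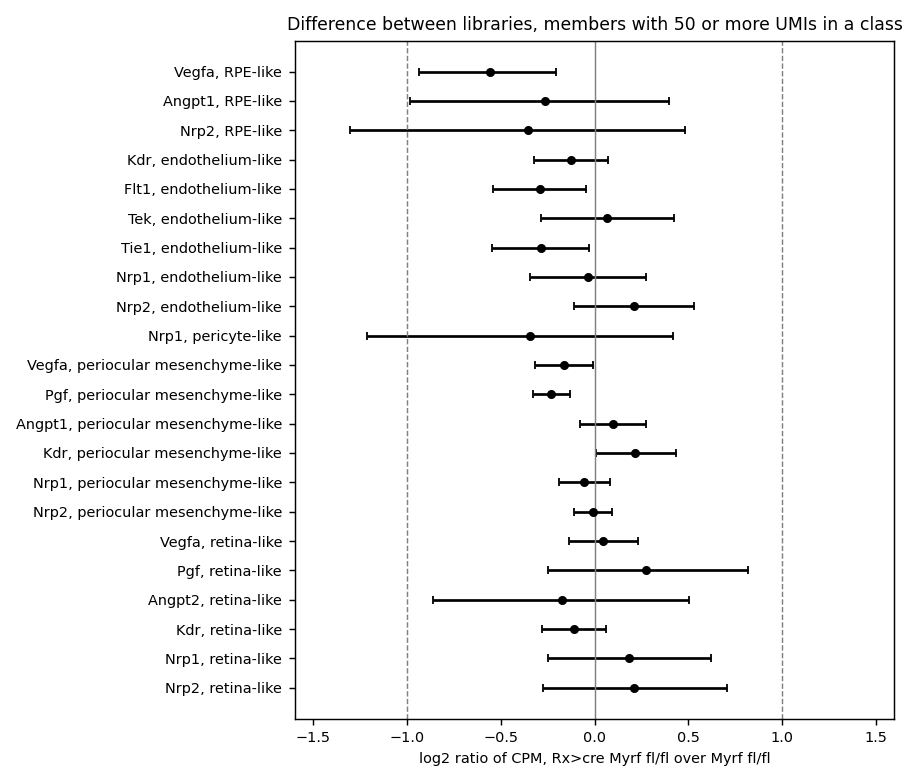
Log2 ratio of CPM, mutant over control (1 UMI added to each sum), for the 22 pairs of gene and class with at least 50 UMIs; bars are exact counting intervals (95%), and dashed lines mark 2-fold. All points lie within the dashed lines, with *Vegfa* in RPE-like cells the lowest at -0.56.

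Other genes of the same pathways were read from a list of 18 (further VEGF ligands, *Flt4*, *Ptprb*, *Angpt4*, class 3 semaphorins and their plexin receptors). In endothelium-like cells 5 could be compared, 3 lower and 2 higher in the mutant library, and 0 passed 2-fold, beside 0.781% of 6144 genes there. The lowest were *Vegfb* (59 and 41 UMIs, log2 ratio -0.51, -1.13 to 0.08) and *Ptprb*, a phosphatase that restrains TIE2 (76 and 63 UMIs, -0.26). The highest were *Vegfc*, a ligand of the lymphatic receptor (24 and 33 UMIs, 0.45), and *Flt4*, that receptor (70 and 77 UMIs, 0.14). In RPE-like cells 6 could be compared, 5 lower and 1 higher, with a median of -0.49, beside -0.03 over all genes there. Of these, 2 passed 2-fold, both lower: *Vegfc*, with 49 and 15 UMIs (23.4 and 10.0 CPM, -1.16, -2.16 to -0.37), and *Sema3b*, a semaphorin that binds neuropilins, with 55 and 18 UMIs (26.3 and 12.0 CPM, -1.08, -1.98 to -0.34). Over all genes there, 1.66% passed 2-fold in this direction. *Sema3f* was the 1 higher (25 and 27 UMIs, 0.59, -0.24 to 1.44). *Vegfb*, a VEGF of limited angiogenic activity, stood at 309 and 247 CPM in RPE-like cells, beside 32.7 and 22.8 CPM in endothelium-like cells.

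Of 16 sprouting and vessel identity genes, 12 could be compared in endothelium-like cells, 10 lower and 2 higher, with a median of -0.44. Only *Jag1*, a Notch ligand, passed 2-fold, with 53 and 20 UMIs (29.4 and 11.1 CPM, -1.36, -2.22 to -0.64), beside 0.586% of all 6144 genes lower past 2-fold and a median of -0.05 over them. *Unc5b*, a netrin receptor of tip cells, had 47 and 24 UMIs (-0.94, -1.74 to -0.23). *Kcne3*, a potassium channel subunit, was the highest, with 45 and 80 UMIs (0.82, 0.29 to 1.39), and *Pdgfb*, the endothelial signal that recruits pericytes, had 94 UMIs in each. A single cell held 30% of the mutant *Kcne3* UMIs, and 1 cell 21.3% of the control *Unc5b* UMIs. In RPE-like cells 3 of the 16 could be compared, all lower and none past 2-fold, beside 2.62% of 6914 genes there. *Jag1* at -0.32 and *Notch1* at -0.19 were the lowest.

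Hypoxia is a known inducer of *Vegfa*. Its part in the *Vegfa* ratio was not tested. Of 15 hypoxia-responsive genes, 10 could be compared in RPE-like cells, 6 lower and 4 higher, with a median of -0.02 and none past 2-fold. Over all 6914 genes there the median was -0.03, and 2.62% passed 2-fold. *Aldoa* (-0.36, -0.46 to -0.27) and the glucose transporter *Slc2a1* (-0.14) were the lowest, and the glycolytic enzymes *Ldha* (0.23, 0.10 to 0.36) and *Pgk1* (0.21) the highest. In endothelium-like cells 4 of 9 were lower and 5 higher, from *P4ha1* (-0.51) and *Slc2a1* (-0.43, -0.67 to -0.20) to *Eno1* (0.12) and *Pgk1* (0.15). Of the 9 dissociation genes, 2 could be compared in RPE-like cells, *Jun* (0.52, 0.04 to 1.00) and *Ier2* (0.16). There, 1 cell held 20.8% of the mutant *Jun* UMIs. In endothelium-like cells 5 could be compared, 3 lower and 2 higher, from *Atf3* (-0.36) and *Ier2* (-0.20) to *Jun* (0.12) and *Junb* (0.32).

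For each member, the 3 genes with the most alike pattern over 14 named classes in both libraries (28 points, log2(CPM + 10), 13534 genes) were listed as a description. The points of 1 library share its depth. *Tek* was most like *She*, *Procr* and *Gimap4* (Pearson r of 0.998, 0.998 and 0.997), *Flt1* like *Robo4*, *Tmem252* and *Mmrn1* (0.994 to 0.992), and *Tie1* like *Tmem252*, *Ptprb* and *Mmrn2* (each 0.991). *Kdr*, with its retinal share, was like *Kcna5*, *Tgm2* and *Kank3* (0.937 to 0.910). *Vegfa* was most like *Tmem246*, *Stra6*, the retinol transporter of RPE, and *Mmp16* (0.912 to 0.869), and *Pgf* like *Islr*, *Alx4* and *C1qtnf7* (0.921 to 0.899). *Nrp2* was like *Il11ra1*, *Fkbp7* and *Eva1b* (0.909 to 0.899), *Nrp1* like *Kitl*, *BC028528* and *Uba7* (0.854 to 0.849), *Angpt1* like *Olfml1*, *A330094K24Rik* and *Wif1* (0.869 to 0.849), and *Angpt2* like *Dip2c*, *Tfap2a* and *Lbh* (0.857 to 0.827).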

How the data were processed

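The authors made the libraries with 10X Genomics 3′ chemistry and deposited raw UMI counts of called cells, from Cell Ranger 7.1.0 on mm10. Whether intronic reads were counted is not given in the sources used here, and 3′ counts do not separate isoforms. The submitters' processing notes also name Seurat 4.1.1.

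Following the study's methods, cells needed 200 genes and at most 15% mitochondrial UMIs. Scrublet (scanpy 1.11.5, expected doublets 5%) marked 0.924% of control and 1.16% of mutant cells as doublets, which were removed. The study's further limit of 2000 UMIs, which would leave 1190 and 1096 cells, was run as an alternative. Anchors, integration, 30 principal components and clustering at resolution 0.8 used Seurat 5.3.0 under R 4.3.3. The 10 genes and the listed genes were left out of the 2000 variable features, leaving 1964. Clusters were named from marker lists, each needing at least 3 markers. One cluster was clustered again to separate pericyte-like cells. The naming thresholds and this division were chosen with the clusters in view.

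CPM is the gene's UMIs per 1000000 UMIs summed over a class and library. For log2 ratios 1 UMI was added to both sums. Their intervals are exact (conditional binomial), those of CPM Poisson and those of shares Clopper-Pearson. Only genes with at least 50 UMIs over both libraries were held against 2-fold. The ratio was also computed on simulated Poisson counts without spread between cells or libraries, which cannot test the intervals on these data. The gene names rule took all members, the 2 lowest and 2 highest genes of each list in RPE-like and endothelium-like cells, and the 3 genes most like each member. The members and lists were chosen with earlier results of these data known. Gene positions came from GENCODE vM21 (GRCm38, the assembly of mm10).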

Additional observations from a re-analysis of the deposited data

Results flagged for a closer look

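*Vegfa* stood at 375 CPM (33 UMIs) in the control and 243 CPM (21 UMIs) in the mutant library in the unnamed cluster that holds 57 barcodes found in both libraries, higher than in any named class of either library (94.2 CPM in control RPE-like cells at most). This signal lies in cells outside the report's classes. The cluster, led by *Cxcl14*, *Gm11361*, *S100a6* and *S100a4*, held 60 and 63 cells. It adds to no value of the classes.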

How the results depend on the processing

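*Vegfa* in RPE-like cells kept a ratio under 0 in every alternative, and 1 moved it outside its interval, cells of female embryos, with -0.0672 on 35 and 17 UMIs. Counting members from 20 UMIs on gave 3 past 2-fold in place of 0, namely *Pgf* and *Nrp2* in pericyte-like cells and *Flt1* in mesenchyme-like cells (named after their values were seen). At that minimum 2 of 3 members passed in pericyte-like cells, beside 6.06% of 4009 genes, 1 of 9 in mesenchyme-like cells, beside 1.61% of 13758, and none in the other classes. Members with the same highest class numbered 7 to 10 over the alternatives. None of the 22 pairs had passed 2-fold, so there was no call to reverse. Their ratios, computed 305 times over the alternatives, kept their sign 274 times and lay within their main interval 274 times. Of the 31 outside it, 9 came under the limit of 2000 UMIs and 9 and 7 in female and male cells. The sex sets were not small in every class. They held 855 control and 596 mutant female and 411 and 889 male mesenchyme-like cells. At resolution 0.4 no pericyte-like class arose. The division of a cluster for pericytes and the exclusion of shared barcodes were chosen after seeing the data. No paired analysis was possible because each genotype has 1 library. Few UMIs limit *Angpt2*, the number of cells (30 and 20) limits all pericyte-like values, and pool and genotype cannot be told apart.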
